A study of Mus musculus with 6 samples.

Results

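The genes of sterol synthesis and of its control by the transcription factor SREBP2 were compared between cultured mouse fetal liver macrophages with and without Ahrr, which encodes the repressor of the aryl hydrocarbon receptor. The set held 32 genes, listed by symbol in the order of the pathway from acetyl-CoA to cholesterol, and each was matched to the gene symbols of the authors' deposited expression table. All 32 were found among its 16111 genes. Of these, 21 encode enzymes of synthesis or a protein that holds them together, 6 encode SREBP2 and the proteins that hold, carry and cut it, and 5 encode proteins that bind, move or store sterol. The groups were 3 libraries with the genotype given as WT and 3 given as AhRR-/-, all of the strain C57BL/6 RCC and numbered by mouse from 1 to 3. Cells of both groups came from fetal liver at E13.5 and had the same treatment, 5 weeks in RPMI medium with 10% FCS and 2% GM-CSF, a growth factor that keeps macrophages alive, after which the non-adherent cells were taken. The study asked which transcripts differ between the genotypes. The labels do not say which stretch of Ahrr the allele lacks, nor whether a numbered mouse was 1 fetus or a pool, so the p-values measure the spread between these libraries.

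Cholesterol is built from acetyl-CoA by way of mevalonate, farnesyl pyrophosphate and squalene, and SREBP2 switches on most enzymes of the route together. When the endoplasmic reticulum is rich in sterol, the INSIG proteins keep SREBP2 and its escort SCAP there, and when sterol is scarce SCAP carries SREBP2 to the Golgi, where a pair of proteases frees its active part. Macrophages also gain cholesterol from the cells and lipoproteins they engulf, release it from lysosomes through NPC2 and NPC1, and store the surplus as esters made by SOAT1.

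Library totals ran from 3556106 to 41668336 counts, so 3 counts, taken as the floor of detection, stood for 0.072 to 0.844 counts per 1000000 (CPM). Ahrr itself was at 4.597, 4.74 and 5.21 CPM in the wild-type libraries and 2.23, 2.47 and 1.18 CPM in the Ahrr-deficient ones, which edgeR put at -1.21 on the log2 scale (SE 0.26, adjusted p = 0.0151, or 0.301 after all libraries were thinned to the smallest total). As the stretch lacking in the allele is not given, reads from the rest of the gene do not test it. The 15 macrophage markers were all measured. Their summed level was 63837 to 64627 CPM in the wild-type and 49434 to 60418 CPM in the Ahrr-deficient libraries, without overlap. Most of it was Chil3 (means 36532 and 33410 CPM) and Lyz2 (20404 and 14830 CPM), at adjusted p = 0.420 and 0.0926 in edgeR. At an edgeR adjusted p under 0.05, 2 of the 15 were higher and 1 lower, where 19.6% of all genes tested passed. Csf1r fell (log2 fold change -0.65) and Mrc1 rose (0.59), as did Itgax (adjusted p = 6.96e-04 in edgeR). Of the 52 markers of other cell types 13 were in the table, and the lists for neutrophils, erythroid cells, hepatocytes and stroma summed to at most 2.98 CPM in any library. In the dendritic cell list Clec9a rose from 56.1 ± 5.57 to 79.1 ± 11.6 CPM (SD, n = 3; adjusted p = 0.0256 in edgeR), while Zbtb46 was at 5.64 ± 0.579 and 4.31 ± 0.371 CPM, lower in every Ahrr-deficient library (adjusted p = 0.228 in edgeR). Xcr1 of the same list stayed at or under 0.411 CPM, and Flt3, Ccr7 and Cd209a were not in the table. The part of these markers in the sterol values was not tested. Ahrr-deficient replicate 1, the shallowest library, stood apart from the other five on the second principal component, which held 20.4% of the variance. In wild-type replicate 2 a ribosomal RNA feature took 5.28% of the counts, against at most 0.0679% elsewhere.

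Of the 27 matched genes, only Hmgcs1 held TCACNCCAC, a form of the sterol response element, in its window. Promoter sequences are shown for 4 genes as examples: Hmgcs1, Srebf2 (the gene of SREBP2), Sc5d, which rose, and Pmvk, which fell. Stard4, which also rose, had no promoter entry. Those of Erg28, which rose, and Npc2, which fell, are not shown, and the Erg28 window held no NF-Y box. Each is the stretch from 250 bases before the RefSeq start site to the base before it, 5′ to 3′ on the gene's strand in GRCm38.p6, and for Srebf2 it ends 89 bases before that site, where the GENCODE gene begins. Capitals mark the sterol response element TCACNCCAC, the NF-Y box CCAAT and the Sp1 box GGGCGG, each on either strand. The windows are chr13:119690101-119690350 (plus strand) for Hmgcs1, chr15:82147019-82147180 (plus) for Srebf2, chr9:42264301-42264550 (minus) for Sc5d and chr3:89454291-89454540 (plus) for Pmvk.
Hmgcs1: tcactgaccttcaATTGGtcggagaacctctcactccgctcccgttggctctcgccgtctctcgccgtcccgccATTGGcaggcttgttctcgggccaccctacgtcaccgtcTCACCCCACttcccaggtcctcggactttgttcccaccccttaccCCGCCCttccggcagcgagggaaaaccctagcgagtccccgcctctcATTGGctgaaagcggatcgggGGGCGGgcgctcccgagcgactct
Srebf2: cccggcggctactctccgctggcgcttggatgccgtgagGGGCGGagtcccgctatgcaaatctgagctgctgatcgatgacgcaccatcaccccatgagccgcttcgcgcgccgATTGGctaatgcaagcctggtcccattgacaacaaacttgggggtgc
Sc5d: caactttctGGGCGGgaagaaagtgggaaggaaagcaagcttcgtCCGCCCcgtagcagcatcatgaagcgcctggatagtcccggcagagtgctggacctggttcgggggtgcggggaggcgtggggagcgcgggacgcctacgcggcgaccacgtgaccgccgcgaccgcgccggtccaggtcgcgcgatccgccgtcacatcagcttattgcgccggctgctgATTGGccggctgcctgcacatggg
Pmvk: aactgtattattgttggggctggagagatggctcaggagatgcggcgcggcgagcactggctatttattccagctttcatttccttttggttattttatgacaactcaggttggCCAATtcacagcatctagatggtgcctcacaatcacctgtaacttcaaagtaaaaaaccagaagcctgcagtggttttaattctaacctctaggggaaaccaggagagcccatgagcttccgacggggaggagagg
The Hmgcs1 window holds 1 sterol response element, 137 to 129 bases before the start site, with 3 NF-Y and 2 Sp1 boxes around it. In the stretches shown, Srebf2 has 1 NF-Y and 1 Sp1 box, Sc5d 1 NF-Y and 2 Sp1 boxes, and Pmvk a single NF-Y box. The longer windows counted below, which run to 50 bases after the start site, hold more. There Srebf2, Sc5d and Hmgcs1 have further Sp1 boxes and Hmgcs1 a further NF-Y box. Looser forms of the sterol response element were not searched. The Srebf2 window holds tcaccccat, which differs from TCACNCCAC at the last base.

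RefSeq promoters, taken as 300 bases from 250 before to 50 after the start, were found for 27 of the 32 genes. None was found for Fdps, Fdft1, Sqle, Stard4 and Npc1. On either strand, TCACNCCAC occurred in 1 of these 27 genes (3.70%) and in 1.44% of the 27025 genes in the table, and a stricter form, with an A added in front and C at the free position, in 0 of 27 and in 0.0999% of all. NF-Y boxes were found in 22 of 27 (81.5%, against 41.1% of all genes) and Sp1 boxes in 24 of 27 (88.9%, against 38.2%). GCGTG, the core of the site bound by the aryl hydrocarbon receptor with its partner ARNT, was in 19 of 27 (70.4%, against 35.2%). These are matches of letters in a short window, and no binding was measured. The comparison takes in all genes with a promoter entry, measured here or not, and was not matched for GC content.

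Calls among the sterol genes came at about the share seen over all genes. Past the threshold, an edgeR adjusted p under 0.05, were 5 of the 32: Stard4, Erg28 and Sc5d rose and Npc2 and Pmvk fell. That is 15.6% of the set, where 19.6% of the 11408 genes tested passed (9.62% higher and 9.95% lower). The groups did not overlap for 13 of the 32 genes, 8 higher and 5 lower in the Ahrr-deficient cells, or 40.6%, against 38.8% of all genes tested. At an unadjusted p under 0.05 there were 12 of 32 and 4087 of 11408. The median size of the log2 fold change, signs left out, was 0.18, against 0.22 over all genes tested. Fold changes lay above 1 for 19 genes and below 1 for 13, with a median log2 fold change of 0.07, against 0.01 over all genes tested. None of the 32 had a fitted 2-fold difference, where 580 of the 11408 did, and 30 were within 1.5-fold either way. The 95% interval lay within a 2-fold difference for 31 of the 32, all but Idi1, and for 9515 of the 11408. The members were measured, with at least 3 counts in each library, and 9 had fewer than 50 counts in some library.

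**Figure D1:**
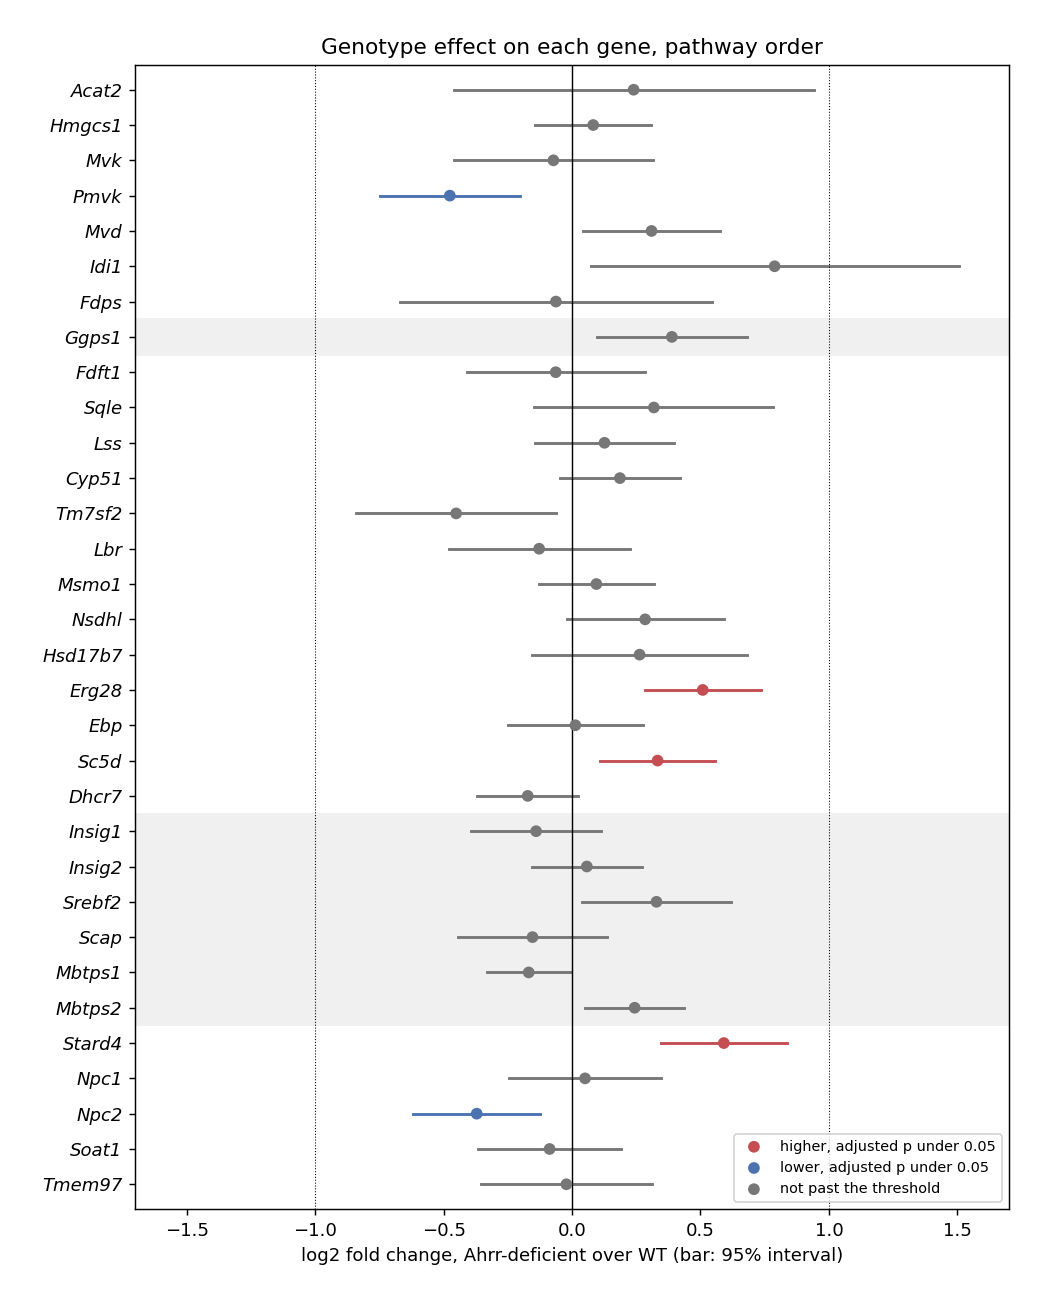
Log2 fold change of each of the 32 genes, Ahrr-deficient over WT, in pathway order (points) with its 95% interval (bars); dotted lines mark a 2-fold difference either way, and grey bands set apart the isoprenoid branch and SREBP2 control. Points past the threshold are Stard4 (0.59), Erg28 (0.51) and Sc5d (0.33) on the right and Pmvk (-0.48) and Npc2 (-0.37) on the left, and of the intervals only that of Idi1 reaches beyond a 2-fold difference.

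In the early, mevalonate stretch of the pathway 1 of 7 genes passed the threshold (14.3%, against 19.6% of all genes tested). Pmvk (chromosome 3, 89454541 to 89469013), whose enzyme adds the second phosphate to mevalonate, was at 20.7, 20.01 and 17.4 CPM in wild-type replicates 1 to 3 and at 16.1, 13.52 and 13.46 CPM in Ahrr-deficient replicates 1 to 3. Every Ahrr-deficient library was below every wild-type library. The mean fell from 19.4 ± 1.73 to 14.4 ± 1.54 CPM (SD, n = 3), and the log2 difference was -0.48 (SE 0.12, adjusted p = 0.0261 in edgeR). The call was lost in 8 of 14 alternative fits, among them those without wild-type replicate 1 (0.149) or 2 (0.0843), without Ahrr-deficient replicate 2 (0.101) or 3 (0.0876), with offsets for GC content (0.104) and after thinning (0.0644), each an edgeR adjusted p.

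Mvd, which makes isopentenyl pyrophosphate from the product of Pmvk, had a fold change above 1 and did not pass the threshold. Its level was 64.4, 59.2 and 73.2 CPM in the wild-type and 69.1, 82.4 and 90.6 CPM in the Ahrr-deficient libraries. Ahrr-deficient replicate 1 lay within the wild-type range and the other 2 lay above it. The log2 fold change was 0.31 (95% interval 0.04 to 0.58, adjusted p = 0.0940 in edgeR). It passed without Ahrr-deficient replicate 1 (0.39, adjusted p = 0.0176 in edgeR), with GC offsets (0.48, adjusted p = 0.0101 in edgeR) and with no filter on low counts (adjusted p = 0.0391 in edgeR).

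Hmgcs1, which commits acetyl units to the pathway and is a standard SREBP2 target, did not pass the threshold. It was at 32.5, 39.0 and 36.5 CPM in the wild-type and at 39.5, 36.5 and 38.1 CPM in the Ahrr-deficient libraries. The ranges overlapped in part. Wild-type replicate 1 lay below every Ahrr-deficient library and Ahrr-deficient replicate 1 above every wild-type library. The log2 fold change of 0.08 had a 95% interval of -0.14 to 0.31, so a rise of more than 1.24-fold lay outside it (adjusted p = 0.592 in edgeR). Mvk, the first kinase of mevalonate, overlapped too, with 8.60 to 9.92 CPM against 6.68 to 10.8 CPM, a log2 difference of -0.07 (-0.46 to 0.32).

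Acat2, Idi1 and Fdps were low and were measured with little precision. Acat2, which joins acetyl-CoA units, spread from 1.67 CPM in Ahrr-deficient replicate 1, on 6 counts, to 6.48 CPM in replicate 3 of that group, around a wild-type mean of 4.31 ± 0.521 CPM (SD, n = 3). Idi1, the isomerase of isopentenyl pyrophosphate, was at 1.91, 0.702 and 1.78 CPM against 3.34, 2.38 and 3.34 CPM, higher in every Ahrr-deficient library. Its log2 fold change of 0.79 was the largest in the set, had a wide 95% interval, 0.07 to 1.51, and did not pass (adjusted p = 0.109 in edgeR). Fdps, which makes farnesyl pyrophosphate, held 3 to 64 counts a library and overlapped at 1.37 to 1.58 against 0.835 to 1.48 CPM.

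Part of these 3 genes has the same sequence as other annotated genes. Of all 75-base windows in the longest transcript, 40.7% were shared with another gene for Acat2 (Acat3), 29.1% for Idi1 (mostly Gm13502) and 9.24% for Fdps (Gm43738). The share was 25.4% for Fdft1, which overlaps Ctsb on the other strand, 16.1% for Tmem97, 12.2% for Hmgcs1, 10.7% for Lbr, 10.2% for Scap and 7.87% for Ggps1. It was 0 for the 5 genes past the threshold. Only the longest transcript of each gene was searched, so a share of 0 can go with overlapping exons. Annotated exons of Tm7sf2 overlap Vps51 over 532 bases and those of Npc1 overlap Rmc1 over 511 bases, both with a share of 0. How reads matching more than one gene were counted is not given in the sources used here, so the levels of genes with shared windows or overlapping exons are uncertain.

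**Figure D2:**
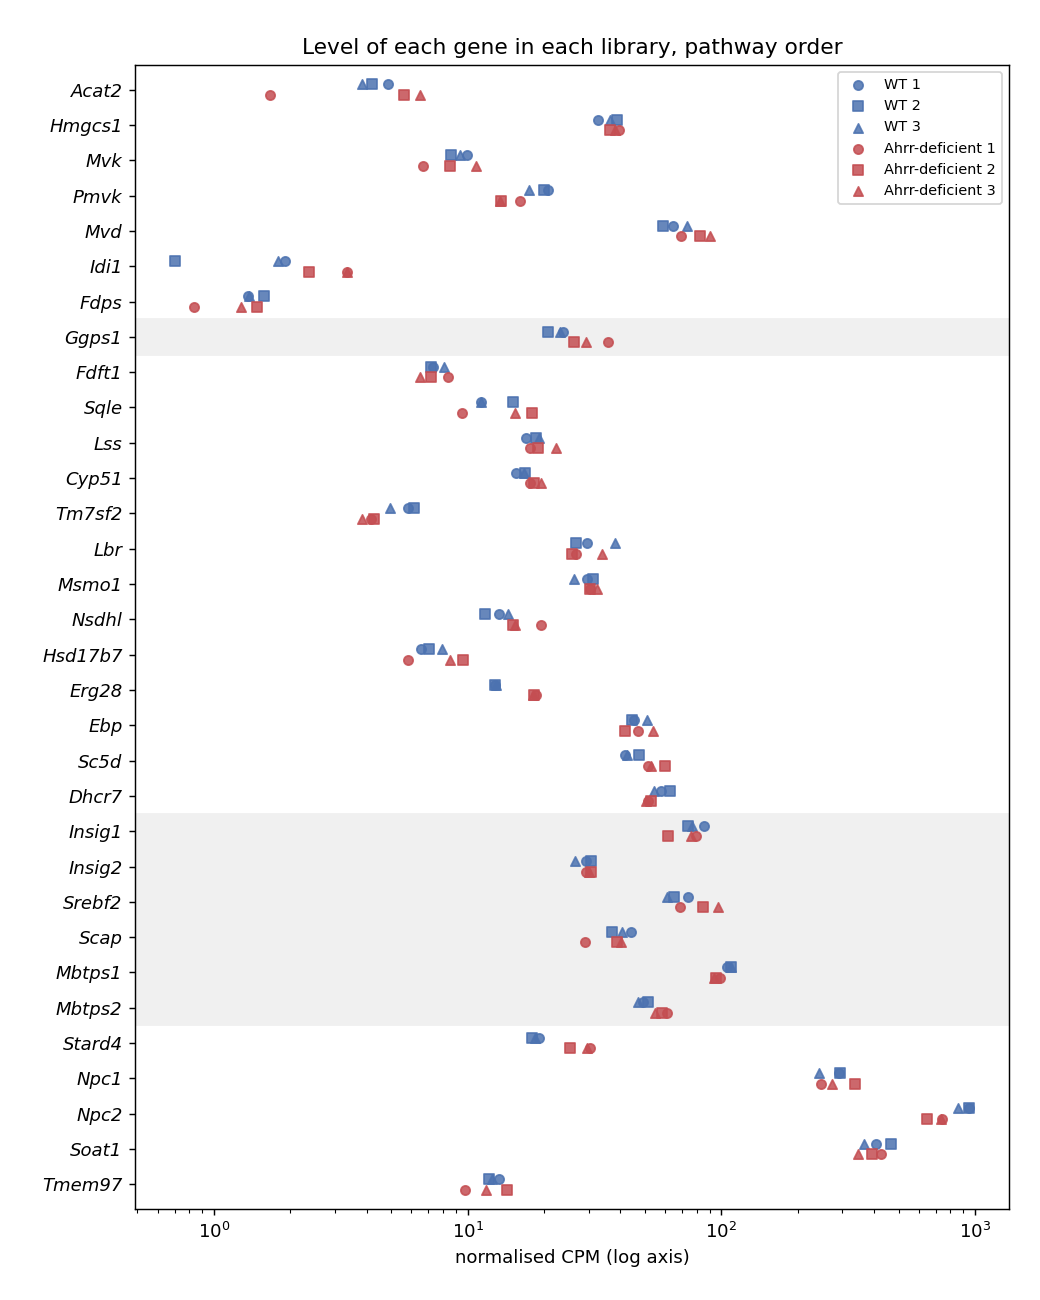
Level of each of the 32 genes in each library, in normalised CPM on a log axis, in pathway order; blue points are WT and red points Ahrr-deficient libraries, the shape gives the replicate, and grey bands set apart the isoprenoid branch and SREBP2 control. Red and blue points are interleaved for 19 of the 32 genes and separate for 13, and Acat2 and Fdps have their lowest point in Ahrr-deficient replicate 1.

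At the branch point, Ggps1 turns farnesyl pyrophosphate into the geranylgeranyl donor for protein prenylation, away from sterol. It was at 23.7, 20.7 and 23.2 CPM in the wild-type and at 35.9, 26.4 and 29.3 CPM in the Ahrr-deficient libraries. All 3 Ahrr-deficient libraries were above the wild-type range, with a log2 fold change of 0.39 (0.10 to 0.68) that did not pass (adjusted p = 0.0629 in edgeR; 0.0268 with no filter on low counts). Fdft1, squalene synthase, takes the same substrate into sterol and overlapped at 7.20 to 8.09 against 6.48 to 8.35 CPM, at a log2 fold change of -0.06 (-0.41 to 0.28). The log2 ratio of Fdft1 to Ggps1 within a library was -1.57 ± 0.11 in wild-type and -2.04 ± 0.15 in Ahrr-deficient cells (SD, n = 3), without overlap. Its difference of -0.47 gave p = 0.1 in an exact permutation test, which cannot give less with 3 against 3.

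From squalene to cholesterol 2 of 13 genes passed (15.4%, against 19.6% of all genes tested), both higher (9.62% of all genes). Erg28 (chromosome 12, 85815448 to 85824550), a membrane protein that gathers the enzymes removing the C4 methyl groups, was at 12.8, 12.8 and 12.9 CPM in the wild-type libraries and at 18.7, 18.2 and 18.2 CPM in the Ahrr-deficient libraries. The spread within each group was far below the gap between them, but the wild-type values rest on 282, 73 and 94 counts. So small a spread on so few counts is not a measure of precision. The mean rose from 12.8 ± 0.0405 to 18.3 ± 0.275 CPM (SD, n = 3; fitted log2 fold change 0.51, or 1.42-fold, SE 0.10, adjusted p = 0.0103 in edgeR). The call held in 12 of 14 alternative fits and was lost in 2, among them the fit without wild-type replicate 1 (adjusted p = 0.0687 in edgeR).

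Sc5d (chromosome 9, 42251595 to 42264256), the lathosterol desaturase near the end of the route, was at 41.7, 47.6 and 42.5 CPM in the wild-type and 51.5, 59.9 and 52.7 CPM in the Ahrr-deficient libraries. Every Ahrr-deficient library was above every wild-type library. The mean rose from 43.9 ± 3.17 to 54.7 ± 4.57 CPM (SD, n = 3; log2 fold change 0.33, SE 0.10), with an edgeR adjusted p of 0.0450 that lies just inside the threshold. It passed in 3 of 14 alternative fits, and edgeR adjusted p-values over the 14 ran from 0.0212 without Ahrr-deficient replicate 1 to 0.198 without wild-type replicate 1; leaving out any of the other 4 libraries also lost the call.

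The remaining enzymes that act on sterol C4 did not pass. Msmo1, the C4 methyl oxidase, overlapped at 26.3 to 31.1 against 30.3 to 32.2 CPM, at a log2 fold change of 0.09 (-0.13 to 0.32). Nsdhl, the decarboxylating dehydrogenase, was at 13.3, 11.8 and 14.4 against 19.5, 15.1 and 15.4 CPM, higher in every Ahrr-deficient library, with a log2 fold change of 0.28 (-0.02 to 0.59, adjusted p = 0.165 in edgeR). Hsd17b7, the ketoreductase, overlapped at 6.55 to 7.95 against 5.85 to 9.55 CPM (0.26, -0.16 to 0.68).

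Among the enzymes that make and open lanosterol the differences were small. Sqle, squalene epoxidase, was at 11.3, 15.1 and 11.2 CPM against 9.47, 18 and 15.3 CPM, with Ahrr-deficient replicate 1 lowest and replicate 2 highest of all. Its log2 fold change was 0.32 (-0.15 to 0.78, adjusted p = 0.298 in edgeR), and 0.46 without Ahrr-deficient replicate 1 (adjusted p = 0.0444 in edgeR). Lss, the cyclase that closes the rings, overlapped at 17.02 to 19.2 against 17.5 to 22.3 CPM (0.13, -0.14 to 0.40). Cyp51, the C14 demethylase, was at 15.6, 16.9 and 16.7 against 17.5, 18.3 and 19.4 CPM, separate by a narrow margin, with a log2 fold change of 0.19 (-0.05 to 0.42, adjusted p = 0.228 in edgeR).

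The paired C14 reductases both had fold changes below 1. Tm7sf2 was at 5.83, 6.14 and 4.94 CPM in the wild-type and 4.18, 4.29 and 3.83 CPM in the Ahrr-deficient libraries, lower in each of them, with a log2 fold change of -0.45 (-0.84 to -0.06, adjusted p = 0.0955 in edgeR). Lbr, which also anchors chromatin to the nuclear envelope, overlapped at 26.9 to 38.0 against 25.8 to 33.9 CPM (-0.13, -0.48 to 0.22). Ebp, the sterol isomerase, was at 46.9 ± 3.47 against 47.5 ± 6.13 CPM (SD, n = 3), with a log2 fold change of 0.01 (-0.25 to 0.28). Dhcr7, the reductase of the last step, was at 57.9, 62.7 and 54.3 against 51.2, 52.9 and 50.7 CPM, lower in every Ahrr-deficient library but not past the threshold (-0.17, -0.37 to 0.02, adjusted p = 0.189 in edgeR). Sc5d and Dhcr7, which act one after the other, thus differed in sign, and only the first passed; the difference between them was not tested.

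Summed over the 21 synthesis genes, the level was 453, 462 and 474 CPM in the wild-type and 481, 497 and 526 CPM in the Ahrr-deficient libraries. The sums over the 21 do not overlap, and their means were 463 ± 10.5 and 501 ± 23 CPM (SD, n = 3). The 21 take in Ggps1, of the branch away from sterol. Taken apart, the sums overlapped for the mevalonate genes, at 133 to 143 against 137 to 164 CPM. They overlapped as well from squalene to cholesterol, at 293.8 to 308.2 against 307.7 to 332.9 CPM. Over all 32 members the Ahrr-deficient sums were lower and separate, at 2283 to 2312 CPM against 2333 to 2566 CPM in the wild-type. Abundant genes weigh most in such a sum. Wild-type and Ahrr-deficient means were 65.6 and 80.7 CPM for Mvd, 43.9 and 54.7 CPM for Sc5d, and 58.3 and 51.6 CPM for Dhcr7. Fold changes lay above 1 for 14 of the 21 and below 1 for 7. Singly, 9 of the 21 were separate between the groups (42.9%, against 38.8% of all genes tested). Of the 21 genes 3 passed the threshold (14.3%, against 19.6% of all genes tested), Erg28 and Sc5d higher and Pmvk lower. The median log2 fold change was 0.13. As the RNA is from bulk culture, a gene being on in fewer cells and less RNA per cell cannot be told apart.

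None of the 6 genes of SREBP2 control passed the threshold with edgeR (19.6% of all genes tested did), nor did any with DESeq2 (17.5%). At an unadjusted p under 0.05 in edgeR there were 3, where 35.8% of all genes tested passed. Srebf2 was at 74.0, 65.3 and 60.9 CPM in the wild-type and 68.8, 84.4 and 97.1 CPM in the Ahrr-deficient libraries. Ahrr-deficient replicate 1 lay within the wild-type range and replicates 2 and 3 above it. The log2 fold change was 0.33 (0.04 to 0.62, adjusted p = 0.101 in edgeR). It passed without Ahrr-deficient replicate 1 (0.42, adjusted p = 0.0145 in edgeR), also with GC offsets (0.48, adjusted p = 0.0159 in edgeR) and with no filter on low counts (0.0239).

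Insig1, itself a target of SREBP2 and a common reporter of its activity, had a fold change below 1. It was at 85.3, 73.7 and 76.9 against 79.4, 61.8 and 76.1 CPM, overlapping, with a log2 fold change of -0.14 (-0.39 to 0.11, adjusted p = 0.402 in edgeR). Its paralogue Insig2 overlapped at 26.6 to 30.7 against 29.2 to 30.6 CPM (0.06, -0.16 to 0.27). Scap, the escort, was at 44.0, 37.2 and 40.6 against 28.96, 38.8 and 40.1 CPM, with Ahrr-deficient replicate 1 lowest (-0.15, -0.44 to 0.14).

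The genes of the proteases that cut SREBP2 were separated between the groups in opposite directions. Mbtps1, the site-1 protease, was at 105, 109 and 109 CPM in the wild-type and 99.1, 94.9 and 93.5 CPM in the Ahrr-deficient libraries, lower in each (log2 fold change -0.17, -0.33 to -0.01, adjusted p = 0.127 in edgeR). Mbtps2, the site-2 protease, was at 49.0, 51.4 and 46.9 against 61.3, 58.6 and 55.0 CPM, higher in each (0.24, 0.05 to 0.44, adjusted p = 0.0757 in edgeR). The log2 ratio of Mbtps1 to Mbtps2 was 1.13 ± 0.07 in wild-type and 0.72 ± 0.04 in Ahrr-deficient cells (SD, n = 3), a difference of -0.41 with an exact permutation p of 0.1. Annotated exons of Mbtps2 overlap Yy2 on the same strand over 2867 bases. The longest Mbtps2 transcript shares no 75-base window with another gene, but its other transcripts were not searched, so the level of Mbtps2 is uncertain.

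Ratios of this kind do not depend on how libraries are scaled, but they were not recomputed with GC offsets. In all, 8 pairs of genes with matched roles were compared. The groups did not overlap for 4 of them: Fdft1 to Ggps1, Mbtps1 to Mbtps2, Npc1 to Npc2 (difference 0.41) and Srebf2 to Srebf1 (0.38). Each of these had an exact two-sided permutation p of 0.1, the smallest possible, and 0.2 after Benjamini-Hochberg adjustment over the 8 pairs. The other four overlapped: Insig1 to Insig2 (-0.18, exact p = 0.3, adjusted 0.48), Tm7sf2 to Lbr (-0.32, exact p = 0.4, adjusted 0.533), Sqle to Lss (0.05, exact p = 0.9, adjusted 1) and Hmgcs1 to Acat2 (0.18, exact p = 1, adjusted 1). Srebf1, which encodes the lipogenic relative of SREBP2, was at 67.8 ± 6.26 and 64.6 ± 7.87 CPM (SD, n = 3).

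**Figure D3:**
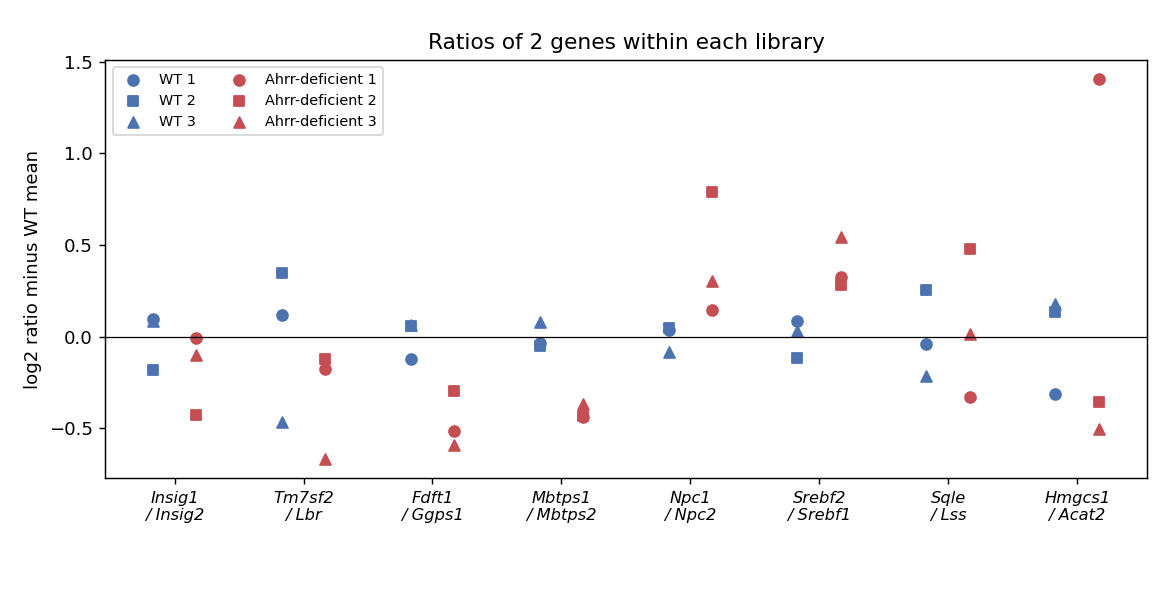
Log2 ratio of 2 genes' counts within each library, less the mean of the 3 WT libraries, for 8 pairs with matched roles; blue points are WT, red points Ahrr-deficient, and the shape gives the replicate. Red and blue points separate for Fdft1 to Ggps1, Mbtps1 to Mbtps2, Npc1 to Npc2 and Srebf2 to Srebf1, and the spread is tightest for Mbtps1 to Mbtps2 (SD 0.07 and 0.04).

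Of the 5 transport and storage genes, Stard4 rose and Npc2 fell (40% called, against 19.6% of all genes tested). Stard4 (chromosome 18, 33199355 to 33213862), a soluble carrier that ferries cholesterol between membranes and is induced by SREBP2, was at 19.1, 17.9 and 18.4 CPM in the wild-type and 30.3, 25.3 and 29.5 CPM in the Ahrr-deficient libraries. The lowest Ahrr-deficient library was well above the highest wild-type one. The mean rose from 18.5 ± 0.586 to 28.4 ± 2.71 CPM (SD, n = 3; fitted log2 fold change 0.59, or 1.51-fold, SE 0.11, adjusted p = 0.00813 in edgeR). It was the one member to pass in all 14 alternative fits, each leave-one-out fit among them, with adjusted p-values from 2.51e-04 to 0.0442 (edgeR, and DESeq2 in 1 of the 14).

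Npc2 (chromosome 12, 84754562 to 84773152), the soluble lysosomal protein that hands cholesterol to NPC1, was the most abundant member. It was at 943, 947 and 858 CPM in the wild-type and 743, 648 and 735 CPM in the Ahrr-deficient libraries, with a clear gap between the groups. The mean fell from 916 ± 50.2 to 709 ± 53.0 CPM (SD, n = 3; log2 fold change -0.37, SE 0.11, adjusted p = 0.0437 in edgeR). It passed in 4 of 14 alternative fits, and of the leave-one-out fits passed only without Ahrr-deficient replicate 1 (adjusted p = 0.0198 in edgeR); without each of the other 5 libraries it ran from 0.0732 to 0.166.

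Npc1, the membrane partner of Npc2, did not pass the threshold. It was at 290, 294 and 243 against 247, 336 and 272 CPM, overlapping, with a log2 fold change of 0.05 (-0.25 to 0.35, adjusted p = 0.816 in edgeR). Soat1, which esterifies cholesterol for storage, overlapped at 366 to 466 against 346 to 426 CPM (-0.09, -0.37 to 0.19). Tmem97, a binding partner of NPC1 that rises in sterol-poor cells, overlapped at 12.1 to 13.3 against 9.75 to 14.3 CPM (-0.02, -0.36 to 0.31).

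**Figure D4:**
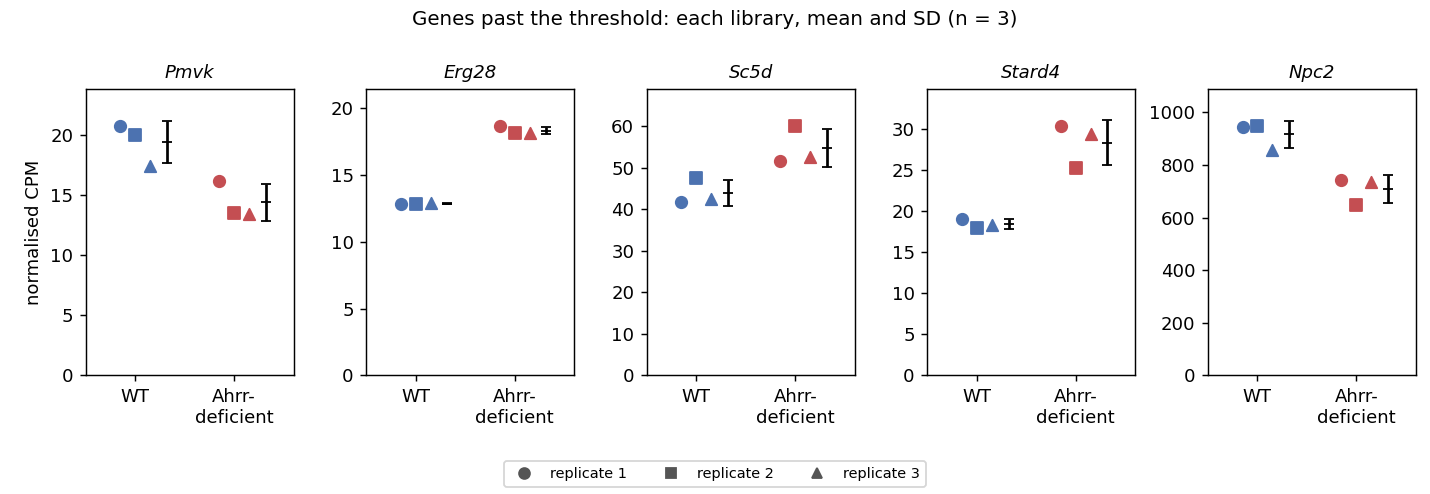
Normalised CPM of the 5 genes past the threshold, each panel on its own axis from 0; points are single libraries (shape gives the replicate) and the bars beside them the mean and SD of 3. The groups are separate in every panel, by the widest margin relative to their spread for Erg28 (12.8 ± 0.0405 against 18.3 ± 0.275 CPM). Its wild-type values rest on 282, 73 and 94 counts, so that spread is not a measure of precision.

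Per kilobase of exon, the only scale on which levels of different genes are compared here, the wild-type order was led by Npc2, at 168 ± 9.24 CPM per kb (SD, n = 3). Soat1 followed at 42.1 ± 5.13, Mvd at 35.3 ± 3.83, Insig1 at 25.4 ± 1.94, Npc1 at 24.4 ± 2.49 and Ebp at 20.3 ± 1.5 CPM per kb. Npc2, Soat1 and Npc1, of lysosomal exit and storage, were thus among the 5 highest. The lowest were Tm7sf2 at 1.28 ± 0.142, Idi1 at 0.418 ± 0.190 and Fdps at 0.342 ± 0.0290 CPM per kb, a 493-fold range from top to bottom. Of the 31 neighbouring pairs in this order 8 did not overlap in the wild-type libraries: Npc2 above Soat1, Mvd above Insig1, Ebp above Pmvk, Nsdhl above Cyp51, Stard4 above Erg28, Erg28 above Sqle, Sqle above Fdft1 and Tm7sf2 above Idi1. The other pairs overlapped, so most of the order in the middle is not resolved.

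Both GC content and Ahrr-deficient replicate 1 moved with the members' values. Over the 32 genes the Spearman correlation of log2 fold change with the GC content of the transcript was -0.51, against -0.28 over all tested genes of known GC, a description over genes that share the same 6 libraries. Of the genes past the threshold, Pmvk (57.0% GC) and Npc2 (51.3%) fell, while Erg28 (46.2%), Stard4 (43.9%) and Sc5d (42.9%) rose. With GC offsets, where 17.8% of all genes passed, Stard4 and Erg28 were still called, Mvd (59.0%) and Srebf2 (57.9%) passed as well, and Pmvk (log2 fold change -0.35, adjusted p = 0.104 in edgeR), Sc5d (0.23, 0.130) and Npc2 (-0.33, 0.0538) did not. Ahrr-deficient replicate 1 was the lowest of its group for 14 genes and the highest for 13, and lay within the wild-type range for 9. Without it 9 members passed, among 32.6% of all genes tested: the same 5 with Mvd, Sqle and Srebf2 higher and Mbtps1 lower. Without wild-type replicate 1 only Stard4 passed, among 6.07% of all genes tested. The part that GC content or a single library plays in these values was not tested further.

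Other genes of the pathway were counted in 4 lists beside the members. Among 14 measured genes of acetyl-CoA supply and fatty acid synthesis 4 rose and 1 fell (35.7%, against 19.6% of all genes tested), with a median log2 fold change of 0.29. Scd1, a fatty acid desaturase, rose from 3.98 ± 0.710 to 12 ± 3.74 CPM (SD, n = 3; log2 fold change 1.71, adjusted p = 0.00331 in edgeR), Elovl6, an elongase, from 2.26 ± 0.885 to 9.49 ± 6.18 CPM (2.13, 0.0143), and Acaca, which makes malonyl-CoA, from 16.7 ± 0.592 to 33.03 ± 5.19 CPM (1.01, 0.00244). For Elovl6 the groups overlapped, as Ahrr-deficient replicate 1 was at 3.06 CPM and wild-type replicate 1 at 3.14 CPM. Fasn, fatty acid synthase, rose too and overlapped in the same way, with 65.4 CPM in Ahrr-deficient and 65.6 CPM in wild-type replicate 1, and Acacb, whose malonyl-CoA restrains fatty acid oxidation, fell (log2 fold change -1.59, adjusted p = 0.0130 in edgeR). Elovl6, Scd1, Acaca and Acacb had larger log2 fold changes than any of the 32 sterol genes, while that of Srebf1 was -0.05 (adjusted p = 0.763 in edgeR).

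In the list for sterol-regulated degradation and SREBP traffic 4 of 21 measured genes rose and 1 fell (23.8%, against 19.6% of all genes tested), with a median log2 fold change of 0.15. Sec24a, a coat protein of the vesicles that leave the endoplasmic reticulum, rose from 75.4 ± 5.42 to 117 ± 8.69 CPM (SD, n = 3; log2 fold change 0.64, adjusted p = 0.00354 in edgeR), and Rnf145, a sterol-responsive ubiquitin ligase, from 38.9 ± 0.793 to 55.5 ± 3.00 CPM (0.52, 0.00618). Erlin2 (0.35, 0.0136) and Sar1a (0.29, 0.0262) rose as well, and Aup1 fell (-0.27, 0.0442). These 5 were separate between the groups, as were 12 of the 21 (57.1%, against 38.8% of all genes tested). The 12 take in the transcription factor genes Nfya, Nfyb, Nfyc and Sp1, which were on this list and did not pass the threshold. In the other lists the separate share was 22.2% for isoprenoid use, 28.6% for fatty acid synthesis, 38.9% for further sterol transport and 24% for proliferation.

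Of 18 further genes of sterol transport and storage 4 passed the threshold (22.2%, against 19.6% of all genes tested), all lower (9.95% of all genes), with a median log2 fold change of -0.06. Scarb2, a lysosomal membrane protein, fell from 609 ± 16.3 to 413 ± 91.6 CPM (SD, n = 3; log2 fold change -0.56, adjusted p = 0.0313 in edgeR), and Gramd1a, a carrier at contacts of the plasma membrane, from 47.5 ± 2.15 to 34.1 ± 2.07 CPM (-0.47, 0.00964). Ptch1 fell by 0.65 and Pgrmc1 by 0.35 on the log2 scale (adjusted p = 0.0154 in edgeR and 0.0346). A further list held 18 genes around the use of farnesyl and geranylgeranyl pyrophosphate, not all of them direct users. Of these 2 rose (11.1%, against 19.6% called and 9.62% higher over all genes), and the median was 0.13. They were Pdss1, which starts the tail of coenzyme Q (0.86, adjusted p = 0.0212 in edgeR), and Zmpste24, the protease of prenylated lamin A (0.31, 0.0445).

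Of 25 listed proliferation genes 6 passed the threshold (24%, against 19.6% of all genes tested), all higher (9.62% of all genes), with a median log2 fold change of 0.45, led by Kif11 (1.48, adjusted p = 0.00972 in edgeR), Top2a (1.27, 0.0149) and Bub1 (1.11, 0.0113). Their summed level was 386, 346 and 450 CPM in the wild-type and 399, 518 and 584 CPM in the Ahrr-deficient libraries, with replicate 1 of the Ahrr-deficient cells inside the wild-type range. That library also lay inside the wild-type range for 9 of the 32 sterol genes. These were Mvd, Lss, Msmo1, Ebp, Insig1, Insig2, Srebf2, Npc1 and Soat1, of which Insig1 and Soat1 had fold changes below 1. The part of proliferation in the sterol genes' values was not tested.

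**Figure D5:**
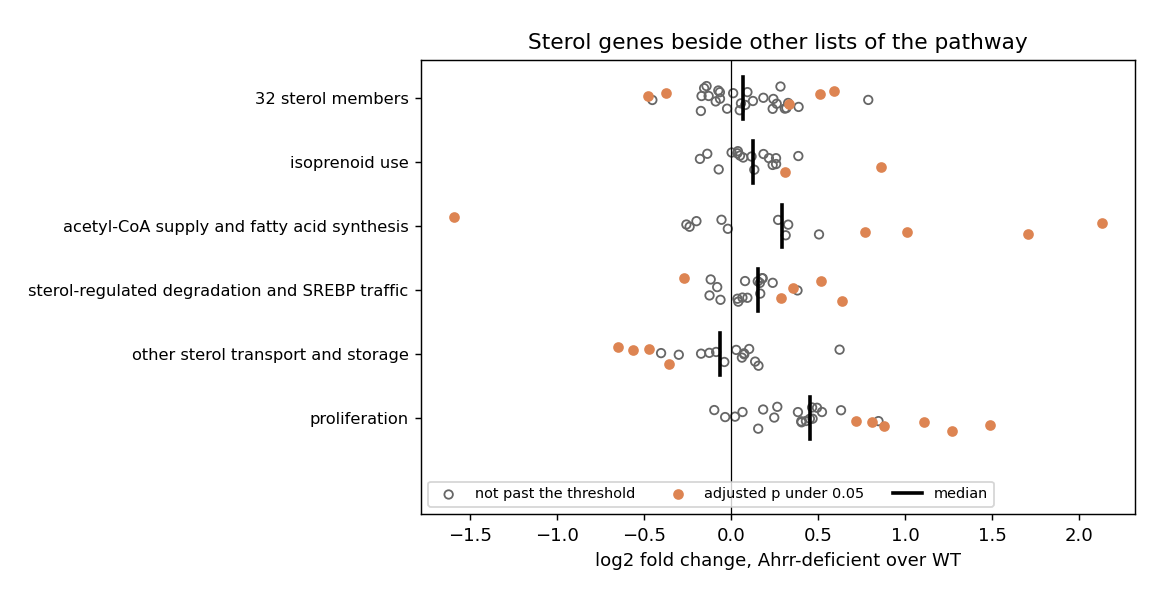
Log2 fold change, Ahrr-deficient over WT, of every tested gene in the sterol set and in 5 other lists; open points did not pass the threshold, filled points did, and the black bar is the list's median. The 32 sterol genes lie between -0.48 and 0.79, whereas the fatty acid list reaches from -1.59 to 2.13 and the proliferation list has the highest median, 0.45.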

How the data were processed

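RNA was measured in 6 libraries, 3 per genotype, prepared with the TruSeq RNA v2 kit (100 ng input, no strand marking) and read as single 75 bp reads, per the labels' protocols. Per the submitters' processing notes, CASAVA 1.8.2, fastp 0.20.0, STAR 2.7.10b, SAMtools 1.16.1, R 4.3.1 and DESeq2 1.40.2 were used with the build mm10. The counting program, its strand setting and the annotation are not given in the sources used here. The authors deposited raw read counts for 53465 features without gene names, and a normalized signal for 16111 named genes. In the deposited signal, 100% of values were whole multiples of 1 read (within 1e-06 reads), and the recovered reads equalled the raw counts of features with at least 10 counts in all, which joined names to counts. Unnamed features held at most 0.0511% of a library and stayed in its total.

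Counts were tested with edgeR 4.0.16 in R 4.3.3 (quasi-likelihood, TMM scaling, filterByExpr, genotype only, two-sided), adjusted by the Benjamini-Hochberg method over 11408 genes. Normalised CPM are counts per 1000000 of the TMM-scaled total. Standard errors and 95% intervals come from the fold change and the F statistic. Ratios used counts plus 0.5 and an exact permutation test, computed with SciPy 1.17.1. Coordinates, lengths, GC content and shared windows come from GENCODE on GRCm38, matched here by gene ID. Promoters are from RefSeq. Groups and replicate numbers come from the sample titles. The fit was checked on simulated counts. Named were all 32 members, Ahrr, both genes of each ratio, and per other list the 3 largest rises and falls past the threshold; other names were chosen after their values were seen. Members and lists were chosen with earlier results of these data known. Alternatives were RLE scaling, no filter, a minimum mean of 50 counts, DESeq2 1.42.0, the replicate number as a block, GC offsets, both together, thinning, each library left out, and for ratios counts plus 2. Replicate libraries differed by more than sampling noise, so each was counted once. Reads carry no molecular identifiers, so floors cover counting error only.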

Additional observations from a re-analysis of the deposited data

How the results depend on the processing

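Over 14 alternative fits, 445 values of the 32 genes were recomputed: 375 kept direction and call, 31 lost and 11 gained a call, and 28 changed sign, for genes whose reported log2 fold change lay between -0.15 and 0.13. The count of genes past the threshold, 2232, became 1390 with the replicate number as a block, 1226 with block and GC offsets and 1251 after thinning, and 694 to 3857 with a library left out. Of the members, 2, 3 and 2 passed in those fits and 1 to 9 (1 to 6 higher, 0 to 3 lower) with a library left out. With no filter 6 were higher and 1 lower (5.82% and 5.89% of all genes), and 0 were lower with the block (6.35%), with GC offsets (8.76%), with both (5.49%) and after thinning (6.34%). With the block, Stard4 and Erg28 passed. The labels do not say whether replicate numbers pair the samples. Correlations of same-numbered deviations were -0.17, 0.07 and 0.13, which with so few libraries cannot settle it.

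Calls in the isoprenoid list went from 2 to 1 with a minimum mean of 50 counts and to 0 with DESeq2, block, GC offsets, both and thinning (0 to 2 with a library left out). For degradation and traffic they were 3 with no filter, 3 with the block, 2 with block and GC offsets, 3 after thinning and 2 to 6 with a library left out. Fatty acid calls were 2 to 8 and other transport 0 to 6 with a library left out. Proliferation calls were 10 with no filter, 3 with block and GC offsets, 3 after thinning and 0 to 11 with a library left out.

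Signs changed with GC offsets, alone and with the block, for Hmgcs1 (-0.017, -0.029), Mvk (0.043, 0.044), Insig2 (-0.0020, -0.0079), Scap (0.017, 0.015) and Npc1 (-0.014, -0.026), and with GC offsets for Tmem97 (0.032). Thinning did so for Mvk (0.038), Fdft1 (0.058), Lss (-0.018), Ebp (-0.094) and Insig2 (-0.036). With a library left out the range crossed 0 for Fdft1 (-0.12 to 0.0011), Lbr (-0.28 to 0.012), Ebp (-0.10 to 0.11), Insig2 (-0.0023 to 0.096), Npc1 (-0.093 to 0.13), Soat1 (-0.17 to 0.0064), Tmem97 (-0.21 to 0.049), Sqle to Lss (-0.16 to 0.25) and Hmgcs1 to Acat2 (-0.43 to 0.53). The ratios ran from -0.27 to -0.05 for Insig1 to Insig2 and -0.56 to -0.15 for Tm7sf2 to Lbr. The cause was not tested. Depth limits Acat2, Idi1, Fdps and Tm7sf2, with at most 15 counts in the shallowest library.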
